A study of Oryctolagus cuniculus with 16 samples.

Results

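The intima and the media of the same arterial wall were compared for how their gene expression stood after carotid ligation at the basilar terminus (BT), the apex at which the basilar artery (BA) divides. For each gene, the change from sham to ligated rabbits in the media was subtracted from that in the intima, and the result on the log2 scale is called the layer difference below. A positive layer difference means that expression in the intima, relative to the media of the same rabbit, stood higher after ligation than after sham surgery. The comparison used 8 of the 16 libraries of the study, namely all those cut from the BT, with the other 8 coming from the straight BA of the same rabbits. All animals were female New Zealand white rabbits with no genetic change named for any group. Rabbits 3 and 4 had a sham operation and normal flow, rabbits 5 and 6 had both common carotid arteries ligated and high flow, and tissue was taken 24 h later. Each rabbit gave 1 intimal library, from narrow laser-cut strips along the lumen, and 1 medial library, from the wall beneath, each pooled over about 10 sections of that animal. Each of the 4 groups (intima or media, sham or ligated) therefore held 2 rabbits.

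Ligation of the carotid arteries sends more blood through the BA to supply the brain. The endothelial cells of the intima sense the resulting wall shear stress (WSS), while the smooth muscle cells of the media carry the contractile apparatus and bear the wall tension. In flow-induced remodeling, endothelial cells release growth factors, proteases and vasoactive mediators, and smooth muscle cells can reduce their contractile genes and turn over their matrix. A difference in ligation response between the layers describes the tissue cut from each and does not by itself assign a program to either.

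The intimal libraries held 6694436 to 12590707 counts on named genes and the medial libraries 3350190 to 8504341. Levels are given as CPM, counts scaled to a common library total, adjusted by the trimmed mean of M-values (TMM) over the 8 libraries, and they compare samples for 1 gene, not genes with one another. Values given in pairs are in the order of the rabbit numbers, rabbits 3 and 4 for sham and rabbits 5 and 6 for ligated. Within each rabbit the intima held more endothelial transcripts and the media more contractile smooth muscle transcripts. The summed level of 18 endothelial genes was 1533, 6819, 5252 and 5348 CPM in the intima of rabbits 3 to 6, against 717, 2041, 1640.2 and 1212 CPM in the media. That of 24 contractile smooth muscle genes was 34088, 39949.7, 26993 and 81601 CPM in the intima and 163100, 138687, 124172 and 116180 CPM in the media. Every intimal library thus held smooth muscle transcripts, the most in rabbit 6, and every medial library held some endothelial transcripts.

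The sham intima of rabbit 3 stood apart. Its endothelial sum was the lowest of the 4 intimal libraries and lay below that of the media of rabbits 4 and 5. Its sum of 20 leptomeningeal and adventitial fibroblast genes was 24315 CPM, against 8868 in the other sham intima and 1377 and 2553 in the ligated intima. The medial libraries held 23464 and 31504 CPM of these genes in the sham rabbits and 9649 and 11579.7 in the ligated rabbits. Values with both libraries of rabbit 3 left out are therefore given beside some of the results. Genes without such a value may also depend on rabbit 3. In tissue fragments such as these, fewer cells of a type and less RNA per cell cannot be told apart.

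**Figure D1:**
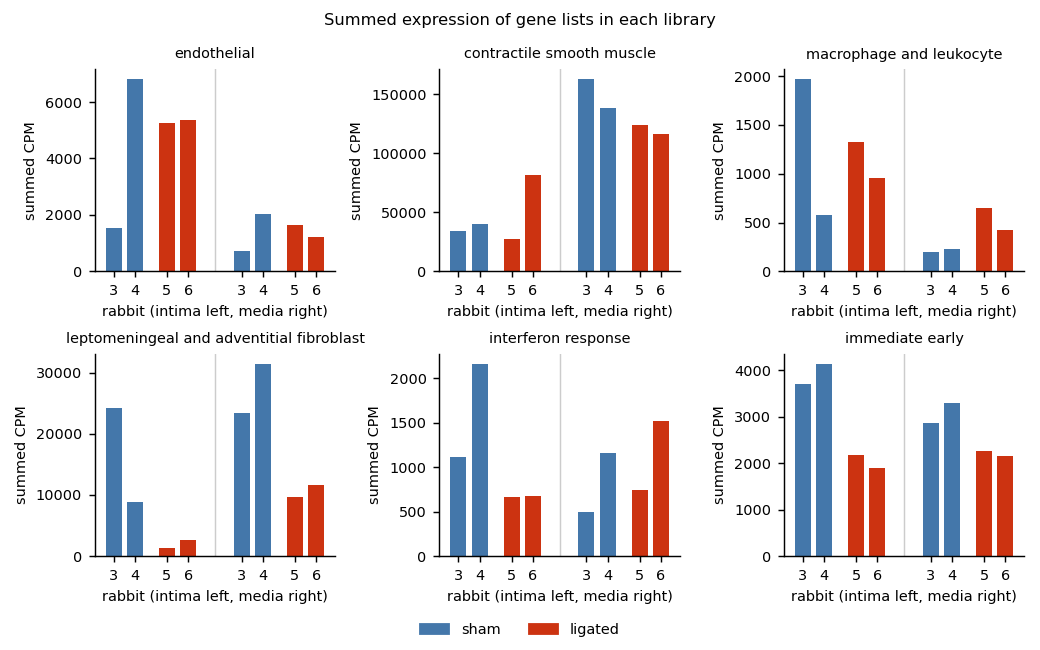
Summed CPM (y axis) of 6 gene lists in each of the 8 BT libraries, by rabbit number (x axis), with the intima on the left and the media on the right of each panel and sham bars in blue, ligated bars in red. The endothelial bars are higher in the intima than in the media of every rabbit. The sham intima of rabbit 3 has the lowest intimal endothelial bar and the highest intimal fibroblast bar. The interferon and immediate early bars of the ligated intima lie below those of the sham intima. In the media the immediate early bars of the ligated rabbits also lie below those of the sham rabbits.

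Of 9624 genes tested, 0 (0%) had a layer difference past a q-value of 0.05 in the edgeR quasi-likelihood test with each rabbit as its own block. The smallest q-value was 0.078, for TYROBP. At an unadjusted p under 0.05 there were 466 genes, 170 with a positive layer difference (1.77%) and 296 with a negative one (3.08%). With scaling by library size alone these were 114 and 319. DESeq2 with the same model called 112 genes past a q-value of 0.05, 21 positive and 91 negative, and limma voom called 0, with 623 at an unadjusted p under 0.05. The median layer difference over all genes was -0.28 on the log2 scale, so a value near that size is that of a typical gene. As a second description, the log2 ratio of intima to media was taken in each rabbit: in 1399 genes (14.5%) both ligated rabbits had a higher ratio than both sham rabbits, and in 2109 genes (21.9%) both had a lower one. With 2 rabbits against 2, no exact permutation test of 1 gene can give a p below 0.333, and all values below rest on those 4 animals. Changes within 1 layer, where called by the test below, come from 1 edgeR fit of both layers without the rabbit block. Fitted alone, the intima gave 0 such calls, with a smallest q-value of 0.25, and the media gave 206.

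**Figure D2:**
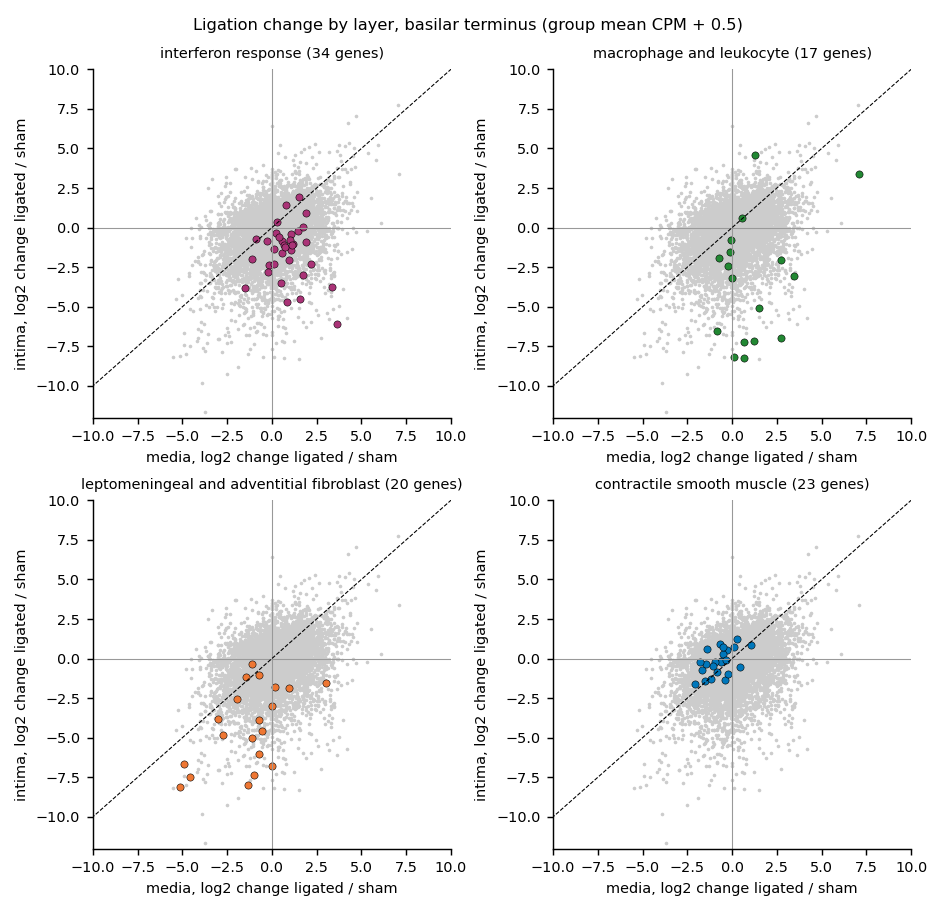
Log2 change from sham to ligated in the media (x axis) and in the intima (y axis), from group means of CPM + 0.5, for all 9624 genes tested (grey) and for 4 gene lists (coloured, 1 per panel), with the dashed line marking equal change in both layers. The 34 interferon response genes and the 17 macrophage and leukocyte genes lie mostly below the line, as do the 20 fibroblast genes, whereas the 23 contractile genes lie near it, 16 of them with a positive fitted layer difference.

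Among genes that reached 10 CPM in at least 1 group, LIMCH1 had the smallest p on the positive side. LIMCH1 encodes an activator of non-muscle myosin II. Its level was 254 and 618 CPM in the sham intima and 1064 and 668 in the ligated intima, and 636 and 1004 CPM in the sham media and 353 and 244 in the ligated media. The layer difference was 2.53 ± 0.45 (SE; q = 0.52), with higher intimal and lower medial values after ligation and no overlap between sham and ligated rabbits in either layer. The value was 2.21 without rabbit 3.

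HBEGF, the heparin-binding ligand of the epidermal growth factor receptor and a mitogen for smooth muscle, was at 5.66 and 4.46 CPM in the sham intima and 260 and 33.2 CPM in the ligated intima, and at 5.69 and 26.3 CPM sham against 33.8 and 7.48 CPM ligated in the media. The ligated intima was above the sham intima in both rabbits, by unequal amounts, while the medial ranges overlapped, and the layer difference was 3.86 ± 0.99 (q = 0.89).

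KITLG, the ligand of the KIT receptor, had 47.3 and 125 CPM in the sham intima and 561 and 190.1 CPM in the ligated intima. In the media it had 20.2 and 58.5 CPM in the sham and 45.1 and 10.5 CPM in the ligated rabbits, ranges that overlap, and the layer difference was 2.75 ± 0.51 (q = 0.52). LTBP1, a matrix protein that holds latent TGF-beta, went from 1004 and 2084 CPM to 4716 and 4455 CPM in the intima and from 3336 and 4233 CPM to 2508 and 2662 CPM in the media, with a layer difference of 2.20 ± 0.49 (q = 0.61). Its sham and ligated values did not overlap in either layer and lay in opposite order.

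For other genes of the positive side the medial values carried most of the difference. ARID5B, a transcriptional regulator, had 1213 and 1291 CPM in the sham media and 236 and 196 CPM in the ligated media, a fall that passed the test (log2 change -2.54, q = 0.048), with 315 and 318 CPM sham against 240.3 and 138 CPM ligated in the intima. Its layer difference was 1.75 ± 0.44 (q = 0.88). KLHL9, an adaptor of a ubiquitin ligase, was at 33.3 and 22.95 CPM in the sham media and 0.631 and 1.43 CPM in the ligated media, with 9.82 and 6.55 CPM sham against 9.98 and 15.4 CPM ligated in the intima. The medial values of both genes were lower in each ligated rabbit than in each sham rabbit. RABGAP1, SEC23A and ZNF214 were also among the 10, with layer differences of 2.90 ± 0.60, 3.25 ± 0.83 and 2.69 ± 0.53; all 3 had ligated medial values below the sham ones.

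**Figure D3:**
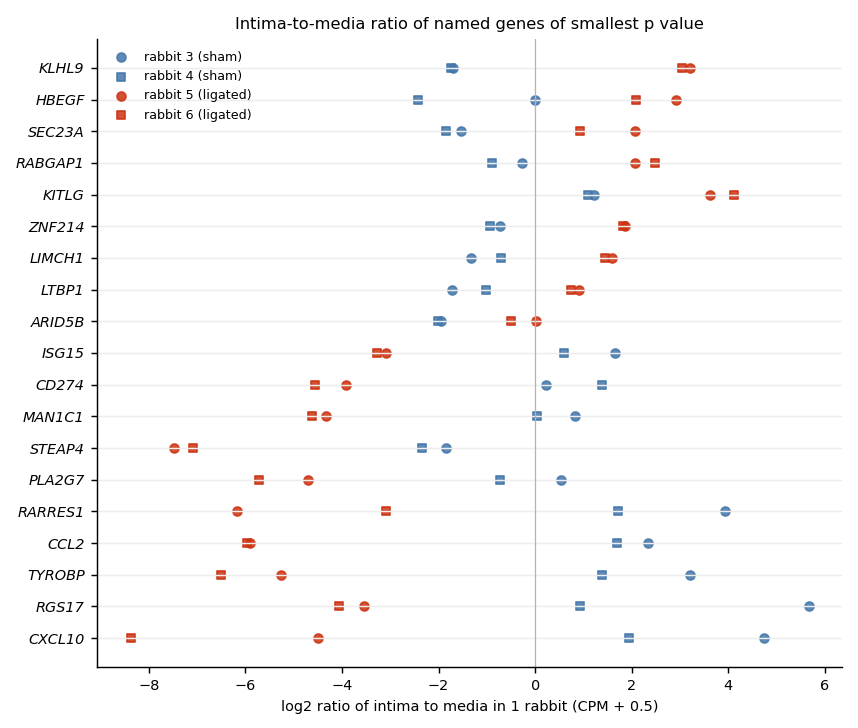
Log2 ratio of intima to media within each rabbit (x axis, from CPM + 0.5) for the genes of smallest p on each side of the layer difference that are named in the text (rows), sham rabbits in blue and ligated rabbits in red. In the upper 9 rows both ligated ratios lie to the right of both sham ratios, and in the lower 10 rows to the left, as a description of genes chosen for their small p.

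The 10 genes on the negative side included ISG15 and CXCL10 of the interferon response, CD274, the chemokine CCL2, the myeloid gene TYROBP, the lipid enzyme PLA2G7, and RARRES1, MAN1C1, STEAP4 and RGS17. RARRES1, a retinoid-responsive gene, was at 692 and 257 CPM in the sham intima and 0.265 and 11.6 CPM in the ligated intima, and at 44.7 and 77.6 CPM sham against 54.9 and 103 CPM ligated in the media. STEAP4, a metalloreductase, was at 18.2 and 10.7 CPM sham against 0 and 0.249 CPM ligated in the intima and at 67.1 and 56.8 CPM sham against 88.4 and 102 CPM ligated in the media. The intimal values of both genes were lower in the ligated rabbits, while the medial values overlapped for RARRES1 and were higher after ligation for STEAP4. STEAP4 and MAN1C1, a Golgi mannosidase, both fell in the intima by the test (q = 0.025 and q = 0.039), and neither layer difference passed it (q = 0.39 and q = 0.52). CD274, which encodes the immune checkpoint ligand PD-L1, had 14.3 and 30.4 CPM in the sham and 0.177 and 3.24 CPM in the ligated intima, and 12.2 and 11.4 CPM sham against 9.78 and 87.5 CPM ligated in the media. CCL2, the monocyte-attracting chemokine, was at 46.5 and 13.4 CPM in the sham intima and 0 and 0.332 CPM in the ligated intima, and ran the other way in the media, at 8.82 and 3.80 CPM sham against 29.4 and 51.7 CPM ligated, with q = 0.39 for the layer difference. RGS17 rested on the sham intima of rabbit 3, with 53.6 and 0.446 CPM in the sham and 0 and 0 CPM in the ligated intima.

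The interferon response genes, which cells switch on through STAT and IRF factors when they sense interferon or viral nucleic acid, stood mostly on the negative side. Of 52 symbols on the list 36 were in the files, and of the 34 that passed the filter on low counts, 32 had a negative layer difference, 14 of them at an unadjusted p under 0.05, beside 3.08% of all genes, and 0 had a positive one at that p by edgeR, DESeq2 or limma voom. Their median was -2.47, made of a median change of -1.31 in the intima and 0.95 in the media, and -2.34 with the 7 members that had a group at 0 set to 3 counts per library. In 19 members both ligated rabbits had a lower intima-to-media ratio than both sham rabbits, and in 0 a higher one, beside 21.9% and 14.5% of all genes. The median was -1.75, -4.87, -3.01 and -1.65 without rabbits 3, 4, 5 and 6 in turn. Each of these fits gave fewer negative members at an unadjusted p under 0.05. With no replicate block 7 members had such a p, beside 4.42% of all genes.

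ISG15, a ubiquitin-like protein among the most strongly induced of these genes, was at 187 and 544 CPM in the sham intima and 20.3 and 43.9 CPM in the ligated intima. In the media it was at 59.2 and 360.2 CPM in the sham rabbits and 177 and 431 CPM in the ligated rabbits. The intimal values did not overlap and the medial values did, and the layer difference was -4.33 ± 0.54 (q = 0.24; -3.82 without rabbit 3). IFI44L followed the same intimal order at 72.4 and 202 CPM sham against 9.80 and 9.13 CPM ligated, with 7.68 and 39.96 CPM sham against 9.47 and 6.65 CPM ligated in the media, and a layer difference of -2.51 ± 0.72 (q = 0.97). The chemokine CXCL10, a T cell attractant, had 12.9 and 53.1 CPM in the sham intima and 0 counts in both ligated intimal libraries, at least 128-fold lower against 3 counts per library, whereas the media held 0 and 13.4 CPM in the sham and 10.7 and 164 CPM in the ligated rabbits. CXCL11 and IFIT2, an RNA-binding antiviral effector, were likewise at 0 in the ligated intima, at least 48.4-fold and 41.99-fold lower than the sham mean, and both had medial counts in the ligated rabbits.

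The RNA sensors DDX58 (RIG-I) and IFIH1 (MDA5) gave smaller values of the same sign, at -2.21 ± 0.71 and -1.92 ± 0.76. IRF9, the DNA-binding subunit of the interferon transcription complex, had a layer difference of -2.88 ± 0.86, SAMD9L -2.42 ± 0.91, PARP14 -2.24 ± 0.93, UBA7, the activating enzyme for ISG15, -2.54 ± 1.03, and PSMB8, an immunoproteasome subunit, -1.47 ± 0.60. Each of these 7 had an unadjusted p under 0.05 and a q-value of 0.97 or above. RSAD2 and OAS2, antiviral enzymes, completed the 14 and had 0 counts in the ligated intima. The summed level of the list was 1113 and 2164 CPM in the sham intima, 667 and 673 CPM in the ligated intima, 498 and 1156 CPM in the sham media and 742 and 1521 CPM in the ligated media. The intimal sums were separated, and the medial sums differed more between rabbits of 1 group than between groups. Most macrophage genes were also lower in the ligated than in the sham intima, as given next, and their part in the interferon values was not tested.

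**Figure D4:**
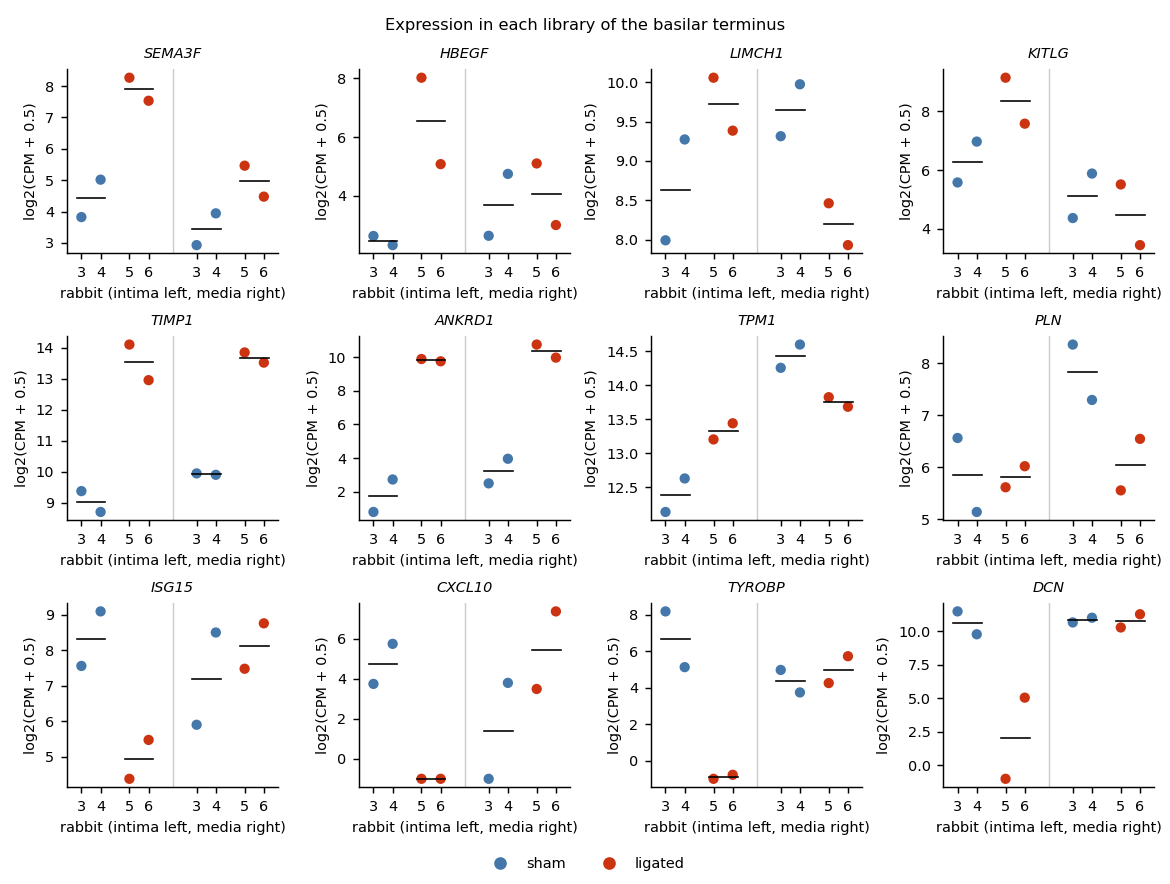
Expression as log2(CPM + 0.5) (y axis) of 12 genes in each BT library by rabbit (x axis), intima left and media right, sham in blue and ligated in red, with bars at the mean of each pair. SEMA3F, HBEGF and KITLG are higher in the ligated than in the sham intima, LIMCH1 and TPM1 run in opposite order in the 2 layers, TIMP1 and ANKRD1 are higher after ligation in both layers, and ISG15, CXCL10, TYROBP and DCN are lower in the ligated than in the sham intima while their medial values overlap.

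Macrophage and leukocyte genes had the lowest median of the 21 lists examined. Macrophages of the perivascular space sit along cerebral arteries, outside the media. Of 23 symbols on the list 18 were in the files and 17 were tested, of which 16 had a negative layer difference and 10 of these an unadjusted p under 0.05, against 3.08% of all genes. The median was -7.17, with -7.89 in the intima and 0.68 in the media, and -6.69 with 5 members at the floor of 3 counts. The median was -6.68, -9.87, -7.29 and -8.52 without rabbits 3, 4, 5 and 6 in turn.

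TYROBP, the signalling adaptor of myeloid receptors, had 292 and 34.5 CPM in the sham intima, against 0 and 1 count in the ligated intima. Its medial level was 31.01 and 12.9 CPM in the sham and 18.6 and 52.6 CPM in the ligated rabbits. The complement gene C1QA had 123 and 2.23 CPM in the sham intima, very unequal between the rabbits, and 0 counts in both ligated intimal libraries. Against 3 counts per library that was at least 243-fold below the sham mean, a mean that rests on rabbit 3. In the media C1QA had 1.99 and 3.14 CPM sham against 12.6 and 26.8 CPM ligated. AIF1, a macrophage actin-binding protein, had 340 and 6.25 CPM in the sham intima and 0 and 1.33 CPM in the ligated intima, and the mannose receptor MRC1 had 77.3 and 23.4 CPM sham against 0 and 0.083 CPM ligated. In each of these genes the sham intima of rabbit 3 was the highest library, and the ligated intima held at most 1.33 CPM, in AIF1, although the media of the same ligated rabbits held more. In the intima TYROBP, MRC1, CD74 and C1QC fell by the test in the joint fit of both layers (q = 0.025, 0.028, 0.036 and 0.047). The intima fitted alone gave 0 calls over all genes.

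In the ligated intima of rabbit 5, 13 of the 18 macrophage and leukocyte genes in the files had 0 counts. In that of rabbit 6, 6 did, against 0 and 1 in the sham intima. Of all 13788 symbols, 10408 and 9364 had counts in the sham intima, against 8044 and 8919 in the ligated intima. The ligated intima of rabbit 5 had the fewest genes detected of the 8 libraries. Not all members of the list were lower in the ligated intima, and the summed level of the list did not separate sham from ligated rabbits there. It was 1970.1 and 576 CPM in the sham intima, 1327 and 956 CPM in the ligated intima, 196 and 227 CPM in the sham media and 649 and 423 CPM in the ligated media, with most of the ligated intimal sum in 1 gene, S100A9. S100A9, a calcium-binding protein carried by neutrophils and monocytes, was at 17.2 and 135 CPM in the sham and 891 and 728 CPM in the ligated intima, and at 0 and 2.31 CPM sham against 386 and 69.8 CPM ligated in the media, so that ligated values were higher in both layers and the layer difference was -3.87 ± 0.97. CD14, the lipopolysaccharide co-receptor, was at 57.5 and 59.8 CPM in the sham and 124 and 55.1 CPM in the ligated intima and 2.56 and 17.01 CPM sham against 19.6 and 9.38 CPM ligated in the media, overlapping in both layers, with a layer difference of -0.43 ± 0.97 whose sign changed without rabbit 3 (0.78). LYVE1, a hyaluronan receptor of resident vascular macrophages and lymphatics, named after its values were seen, had a positive layer difference of 2.64 ± 1.66, with 1.43 and 0.744 CPM in the sham and 65.4 and 10.2 CPM in the ligated intima.

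Fibroblast genes of the leptomeninges and adventitia, which encode proteoglycans and matrix of the outer wall, gave a median of -2.73 over the 20 members tested of 24 on the list, with 6 negative and 0 positive at an unadjusted p under 0.05, beside 1.77% positive and 3.08% negative among all genes. That median was 0.13, -7.12, -2.09 and -3.23 without rabbits 3, 4, 5 and 6 in turn, so that it turned positive without rabbit 3 and was furthest from 0 without rabbit 4. Fewer negative members had an unadjusted p under 0.05 without rabbit 3 or rabbit 5 than with all 4 rabbits. Without rabbit 3 a positive member also had such a p. DCN, the collagen-binding proteoglycan decorin, was at 2855 and 875 CPM in the sham intima and 0 and 32.6 CPM in the ligated intima, and at 1614 and 2059.7 CPM sham against 1244 and 2466 CPM ligated in the media. The medial values overlapped. The ligated intima of rabbit 5, the library with the fewest genes detected, had 0 counts of DCN, and also of LUM, APOD and PDGFRA. OGN, the proteoglycan osteoglycin, was lower after ligation in both layers, at 12699 and 3670.5 CPM sham against 193 and 374 CPM ligated in the intima, where it fell by the test (q = 0.025), and at 8149.9 and 12081 CPM sham against 1467 and 1549.6 CPM ligated in the media. Its layer difference of -1.95 ± 0.83 was -0.78 without rabbit 3.

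Adhesive glycoproteins and proteoglycans, some of them shared with the fibroblast list, had a median of -2.09 over 33 members, 8 negative and 2 positive at an unadjusted p under 0.05, beside 1.77% positive and 3.08% negative among all genes. The median was -0.78, -0.57, -0.93 and -2.42 without rabbits 3, 4, 5 and 6 in turn and -0.92 with no replicate block. SPP1, the secreted phosphoprotein osteopontin, stood at 321 and 1754 CPM in the sham and 46.5 and 4.48 CPM in the ligated intima, with 271 and 249.5 CPM sham against 236 and 499.8 CPM ligated in the media. The intimal values were separated by a wide gap and the medial values overlapped, with a layer difference of -6.04 ± 1.60 (q = 0.9; -7.32 without rabbit 3). NID2, a basement membrane linker, and VIT, vitrin, had 0 counts in the ligated intima, at least 79.1-fold and 304-fold lower than the sham mean, and both fell there by the test (q = 0.041 and 0.025). VCAN, the proteoglycan versican, was high in 1 sham intima only, at 247 and 5.50 CPM, and TGFBI, a collagen-binding matrix protein, was low throughout, at 13.2 and 1.64 CPM in the sham intima. The 2 positive members were LAMA4, the laminin chain of vessels, and HSPG2, perlecan, both of the basement membrane, as is NID2 on the negative side. Their layer differences were 1.63 ± 0.64 and 1.72 ± 0.59, and 0.87 and 1.15 without rabbit 3. With no replicate block 1 member of the list was positive at an unadjusted p under 0.05 by edgeR. The ligated media lay below the sham media for both genes (138 and 283 CPM sham against 69.1 and 88.2 CPM ligated for HSPG2).

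Collagen and elastic fibre genes were near the share of all genes. Of 38, 1 was positive (LTBP1) and 2 were negative at an unadjusted p under 0.05, beside 1.77% positive and 3.08% negative among all genes. The negative ones were MFAP5 and EFEMP1, both microfibril-associated. In the sham intima of rabbits 3 and 4, MFAP5 was at 149 and 12.6 CPM and EFEMP1 at 940.2 and 9.82 CPM, with rabbit 3 the highest library for both. The median of the 38 was -0.04. A list of 49 secreted genes that the study had chosen for their change in the intima of the BT or of the BA in these rabbits had 26 negative and 5 positive members at an unadjusted p under 0.05 and a median of -3.67, which, given that choice, is not independent evidence of its direction. Some of the 49 are also on other lists here, among them ISG15, CXCL10, C1QA, C1QC, LUM, OGN, NID2, VIT and SPP1. The counts given for those lists are therefore not independent of that choice either. The positive members of the 49 included HBEGF, BMP2, SEMA3F and ADAMTS9. The negative ones included CYTL1, IGFBP6 and SERPINF1, at layer differences of -1.92 ± 0.66, -1.76 ± 0.63 and -3.67 ± 0.79, and PROS1, protein S, which had 0 counts in the ligated intima and 596 and 10.7 CPM in the sham intima of rabbits 3 and 4.

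Contractile smooth muscle genes lay a little to the positive side. Of 28 symbols on the list 24 were in the files and 23 were tested, of which 16 had a positive layer difference and 4 of these an unadjusted p under 0.05, against 1.77% of all genes, with 0 on the negative side by edgeR, DESeq2 or limma voom. The median was 0.42, from -0.19 in the intima and -0.60 in the media, so that the medial part was the larger. It was 0.20 without rabbit 3, with fewer members at that p. It turned to -0.52 without rabbit 6, whose intima held the most smooth muscle transcripts, with members of both signs at that p.

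PLN, phospholamban, the inhibitor of the sarcoplasmic calcium pump, was at 328 and 156 CPM in the sham media and 46.4 and 92.7 CPM in the ligated media, with 93.8 and 34.7 CPM sham against 48.4 and 64.2 CPM ligated in the intima, a layer difference of 1.75 ± 0.53. TPM1, alpha-tropomyosin, ran from 19556 and 24777 CPM to 14507 and 13158 CPM in the media and from 4515 and 6348 CPM to 9442 and 11125 CPM in the intima, a layer difference of 1.61 ± 0.53. Both medial ranges were separated, in the downward order, while in the intima only TPM1 was separated, upward. VCL (vinculin, which ties actin to adhesions) and ITGA8 (the alpha-8 integrin of smooth muscle) were the other 2, at 1.87 ± 0.72 and 1.34 ± 0.54, with 0.76 and 0.81 without rabbit 3. The defining members differed by less than 2 SE: MYH11, smooth muscle myosin heavy chain, at 0.70 ± 0.56, DES, desmin, at -0.94 ± 0.74, and ACTA2, smooth muscle alpha-actin, whose reads may be shared with the near-identical other actins, at 0.47 ± 0.88. MYH11 was at 2083 and 1473 CPM in the sham and 451 and 651 CPM in the ligated media, and at 421 and 406 CPM sham against 108 and 401 CPM ligated in the intima.

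Ion channels and contraction regulators had 3 positive and 2 negative members of 38 at an unadjusted p under 0.05, beside 1.77% positive and 3.08% negative among all genes, and a median of 0.12, which turned to -0.02 with scaling by library size alone. The median was -0.11, 0.33, 0.02 and 0.26 without rabbits 3, 4, 5 and 6 in turn. The members at an unadjusted p under 0.05 also changed with the rabbit left out. ATP2A2, the sarcoplasmic calcium pump SERCA2, was at 37.8 and 36.2 CPM in the sham intima and 106 and 126 CPM in the ligated intima and at 137 and 68.9 CPM sham against 89.3 and 84.4 CPM ligated in the media. Of the calcium release channels of the same membrane, ITPR1 and ITPR2 had opposite signs, at 1.81 ± 0.52 and -3.02 ± 0.98. ITPR2 was at 79.1 and 37.8 CPM in the sham intima and 7.24 and 13.8 CPM in the ligated intima, ITPR1 at 75.97 and 169 CPM sham against 218 and 229 CPM ligated. RGS5, a G protein regulator of pericytes and smooth muscle, was lower in the ligated media, at 155 and 97.6 CPM sham against 11.05 and 12.5 CPM ligated, and had a layer difference of 1.81 ± 0.78; it was the only 1 of 7 pericyte genes with an unadjusted p under 0.05. PKD2, the polycystin-2 channel, was at -1.38 ± 0.52.

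Immediate early genes are the transcription factors and feedback regulators that respond to a stimulus within minutes. Of the 20 members tested (29 on the list, 23 in the files), 19 had a negative layer difference. Of these, 5 had an unadjusted p under 0.05, beside 3.08% of all genes, and 0 members were positive at that p by edgeR, DESeq2 or limma voom. The median was -1.54, -0.92 with 1 member at the floor, and -1.56, -1.04, -0.84 and -0.88 without rabbits 3, 4, 5 and 6 in turn. Fewer members were at that p without rabbit 3, rabbit 4 or rabbit 5. In 10 members both ligated ratios lay below both sham ratios, and in 0 above, beside 21.9% and 14.5% of all genes. With no filter on low counts the median over 23 members was -0.44.

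EGR2, a zinc finger transcription factor, was at 30.8 and 34.7 CPM in the sham intima and 4.24 and 4.65 CPM in the ligated intima, and at 22.8 and 9.25 CPM sham against 56.5 and 23.8 CPM ligated in the media. JUN, a subunit of AP-1, was at 18.8 and 53.3 CPM sham against 0.53 and 1.41 CPM ligated in the intima, a fall that passed the test (log2 change -5.19, q = 0.043), and at 33.3 and 23.4 CPM sham against 9.47 and 11.3 CPM ligated in the media. BTG2, an anti-proliferative gene, was at 807 and 527 CPM sham against 99.3 and 183 CPM ligated in the intima and 630.1 and 521 CPM sham against 490.1 and 319.9 CPM ligated in the media. All 3 had separated intimal values, and in JUN and BTG2 the ligated media was also below the sham media, by less. The layer differences of the 5 were -4.20 ± 1.06 for EGR2, -3.70 ± 1.22 for JUN, -1.74 ± 0.58 for BTG2, -1.66 ± 0.64 for the nuclear receptor NR4A2 and -3.13 ± 1.33 for ZFP36, which promotes mRNA decay.

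Targets of YAP and SRF, the factors that read cytoskeletal tension, split 2 and 2 of 18 at an unadjusted p under 0.05, beside 1.77% positive and 3.08% negative among all genes, with a median of 0.08, which turned to -0.05 with scaling by library size alone and -0.61 without rabbit 6. CYR61, a secreted matricellular protein, was at 547 and 693 CPM in the sham and 114 and 34.03 CPM in the ligated intima and at 255 and 303 CPM sham against 104 and 97.7 CPM ligated in the media. It was lower after ligation in both layers, by the test only in the intima (q = 0.041), with a layer difference of -1.85 ± 0.61. F3, tissue factor, had 236 and 18.2 CPM in the sham and 0 and 1.58 CPM in the ligated intima and a higher ligated media (95.6 and 67.9 CPM sham against 117 and 165 CPM ligated). The 2 positive members were AMOTL2, a junctional partner of YAP, at 1.33 ± 0.49, and NT5E, the enzyme that makes adenosine, at 4.82 ± 1.39, both with lower ligated media.

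Of 17 endothelial genes tested, 1 was positive and 1 negative at an unadjusted p under 0.05, beside 1.77% positive and 3.08% negative among all genes. The median of -0.48 depended on which rabbits were in the fit, at 0.11, -2.78, -0.03 and -0.54 without rabbits 3, 4, 5 and 6 in turn, and was 0.34 with no replicate block. Without rabbit 4 more members were negative at that p. FLT1, a receptor of vascular endothelial growth factor, was at 9.68 and 53.4 CPM in the sham and 245 and 102 CPM in the ligated intima, and at 5.97 and 29.4 CPM sham against 5.05 and 26.2 CPM ligated in the media, a layer difference of 2.89 ± 1.18. CLDN5, the tight junction protein of brain endothelium, was at 292 and 1586 CPM sham against 722 and 1228 CPM ligated in the intima, overlapping, and at 3.13 and 71.5 CPM sham against 67.9 and 147 CPM ligated in the media, at -2.12 ± 0.68. PECAM1, an adhesion molecule of endothelial junctions, was at 188 and 506 CPM sham against 829 and 646 CPM ligated in the intima and 4.55 and 137 CPM sham against 135 and 59.7 CPM ligated in the media, with the lowest value of each layer in rabbit 3. The layer differences of PECAM1, VWF (von Willebrand factor) and CDH5 (VE-cadherin) were -0.43 ± 1.04, -1.92 ± 1.13 and -0.18 ± 1.56, and those of PECAM1 and CDH5 became positive without rabbit 3 (1.14 and 1.60).

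Among 29 flow-responsive endothelial genes, 1 was positive and 3 were negative at an unadjusted p under 0.05, beside 1.77% positive and 3.08% negative among all genes, with a median of -1.08. The median was -0.10, -1.86, -0.46 and -1.58 without rabbits 3, 4, 5 and 6 in turn. Fewer negative members were at that p without rabbit 3. BMP2, a TGF-beta family ligand, was the positive one, at 4.43 and 10.6 CPM in the sham and 134 and 23.9 CPM in the ligated intima, and at 5.97 and 9.41 CPM sham against 6.31 and 5.94 CPM ligated in the media. PTGS1, cyclooxygenase-1, was negative at -2.63 ± 0.87, with 75.4 and 150 CPM sham against 24.7 and 55.5 CPM ligated in the intima. CYP1B1, a cytochrome induced by flow in cultured endothelium, had 153 and 149.7 CPM in the sham and 0 and 15.02 CPM in the ligated intima and 375 and 852 CPM sham against 306 and 438 CPM ligated in the media; CCL2 was the third.

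Ligands and receptors through which endothelium and muscle can signal had 7 positive and 6 negative members of 66 at an unadjusted p under 0.05, beside 1.77% positive and 3.08% negative among all genes. The median was -0.25, and 0.08, -0.72, 0.06 and -0.55 without rabbits 3, 4, 5 and 6 in turn. Fewer members of either sign were at that p without rabbit 3 or rabbit 5. The positive ligands were HBEGF, BMP2, SEMA3F (a class 3 semaphorin), PDGFD (a platelet-derived growth factor) and the cytokine IL6. SEMA3F was at 13.6 and 31.8 CPM in the sham and 307 and 185 CPM in the ligated intima, where it rose by the test (log2 change 3.44, q = 0.047), and at 7.11 and 14.9 CPM sham against 43.6 and 21.7 CPM ligated in the media, a layer difference of 1.93 ± 0.56. PDGFD was at 46.8 and 32.9 CPM sham against 79.1 and 48.3 CPM ligated in the intima and 46.4 and 73.2 CPM sham against 21.8 and 19.7 CPM ligated in the media. IL6 had 0 counts in the sham intima and 19.8 and 16.9 CPM in the ligated intima, at least 56.4-fold higher, but 2.56 and 0 CPM in the sham media and 86.2 and 129 CPM in the ligated media, so that its ligated values were above its sham values in both layers and its ratios overlapped. The sign of its layer difference, positive with all 4 rabbits, was negative without rabbit 3, whose sham media held the only sham counts.

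The positive receptors were FLT1 and CALCRL, the receptor of calcitonin gene-related peptide and adrenomedullin, at 64.9 and 265 CPM in the sham and 2055 and 979.6 CPM in the ligated intima and 38.97 and 85.2 CPM sham against 312 and 201 CPM ligated in the media. RAMP2, the co-receptor that gives CALCRL its affinity for adrenomedullin, had the opposite sign, at 268 and 493 CPM sham against 694 and 891 CPM ligated in the intima and 9.10 and 50.9 CPM sham against 234 and 155 CPM ligated in the media. Ligated values were above sham values in both layers for both genes. The layer difference was 1.31 ± 0.49 for CALCRL and -1.99 ± 0.65 for RAMP2, and 0.86 and -1.24 without rabbit 3. TGFBR3, betaglycan, was at 519 and 84.95 CPM in the sham intima and 11.1 and 15.5 CPM in the ligated intima. It fell there by the test (q = 0.043), while its medial values overlapped at 115 and 225 CPM sham against 111 and 135 CPM ligated. Its layer difference was -3.60, and -1.82 without rabbit 3. The other negative members were the growth factor IGF1, the prostaglandin receptor PTGER2, the semaphorin co-receptor NRP2 and PDGFRA, of which PTGER2 had 0 counts in the ligated intima and IGF1 3.

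Proteases and their inhibitors had 2 positive and 0 negative members of 33 at an unadjusted p under 0.05 by edgeR with all 4 rabbits and the block, beside 1.77% positive and 3.08% negative among all genes, and 1 negative with no block, by DESeq2 and by limma voom. The median was -0.73, and 0.19, -0.87, 0.10 and -0.19 without rabbits 3, 4, 5 and 6 in turn. Without rabbit 4 or rabbit 6 some members were negative at that p. Of the positive ones, ADAMTS9, a protease of versican, was at 9.75 and 6.84 CPM in the sham and 143 and 149 CPM in the ligated intima, where it rose by the test (log2 change 4.13, q = 0.039), and at 24.2 and 5.61 CPM sham against 59.3 and 53.3 CPM ligated in the media. Cell junction and adhesion genes had 3 positive and 2 negative members of 43 at an unadjusted p under 0.05 with all 4 rabbits. Their median was 0.07, and 0.16, -0.08, 0.48 and -0.25 without rabbits 3, 4, 5 and 6 in turn. Fewer members were at that p without rabbit 3, rabbit 5 or rabbit 6. ITGB3, the beta-3 integrin, was at 31.03 and 83.2 CPM in the sham and 492 and 659 CPM in the ligated intima and 125 and 192 CPM sham against 756 and 461 CPM ligated in the media, higher after ligation in both layers and by the test in the intima (q = 0.035). ITGB1, the common beta integrin, was at 1.21 ± 0.49, and CLDN1, a tight junction claudin, had 0 counts in the ligated intima and under 13 CPM in every library.

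Cytokines and chemokines had 4 negative members of 29 (CCL2, CXCL10, CXCL11 and MIF) and 1 positive (IL6) at an unadjusted p under 0.05, beside 1.77% positive and 3.08% negative among all genes. Heat shock and endoplasmic reticulum folding genes had 2 positive and 0 negative members of 39 by edgeR with all 4 rabbits and the block. DESeq2 gave 1 negative, and a negative member also arose without rabbit 6. Fewer were positive at that p without rabbit 3, rabbit 4 or rabbit 5. The positive ones were DNAJB4, a co-chaperone, at 2.18 ± 0.82, with 588 and 201 CPM in the sham and 39.5 and 70.7 CPM in the ligated media, and PDIA3, a disulfide isomerase, at 1.02 ± 0.43, with 435 and 242 CPM in the sham and 1172 and 1009 CPM in the ligated intima. In 15 of these 39 genes both ligated ratios lay above both sham ratios and in 6 below, beside 14.5% and 21.9% of all genes. The median layer difference of the 39 was 0.26. The glycolysis list also held transporters and oxygen-responsive genes. It had 2 negative members of 24 at an unadjusted p under 0.05, beside 3.08% of all genes, and 0 with no replicate block. These were the glucose transporter SLC2A1 at -1.32 ± 0.45 and the oxygen-sensing hydroxylase EGLN3 at -5.99 ± 2.32. The median of the glycolysis list was -0.30, and 0.36, -1.17, 0.17 and -0.74 without rabbits 3, 4, 5 and 6 in turn. Cell cycle genes had 0 of 27 at an unadjusted p under 0.05 by edgeR with all 4 rabbits and the block and by DESeq2. There was 1 positive by limma voom and 1 of each sign with no block. A positive member also arose without rabbit 3. Brain parenchyma genes were near absent, at a sum of 3.88 to 54.3 CPM, and their 1 negative member, the synaptic gene SYT1, was under 10 CPM in every library.

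The change within a layer gave calls in a fit of both layers together. In the intima 30 genes rose (0.312%) and 43 fell (0.447%) past a q-value of 0.05 in that fit of the 4 group means, and in the media 5 rose (0.052%) and 5 fell (0.052%). With the intima fitted alone, with its own scaling and filter, there were 0 calls and the smallest q-value was 0.25, and the media fitted alone gave 206. Leaving out rabbits 3, 4, 5 and 6 in turn gave 44, 219, 0 and 19 calls in the intima and 12, 85, 0 and 0 in the media.

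Of the 10 genes called in the media, 6 were also called in the intima with the same sign, and they are given here although chosen after their values were seen. TIMP1, the tissue inhibitor of metalloproteinases, went from 662 and 415 CPM to 17700.1 and 7965 CPM in the intima and from 985 and 954 CPM to 14832 and 11806 CPM in the media. ANKRD1, a tension-responsive co-regulator of muscle, went from 1.23 and 6.10 CPM to 952 and 867 CPM in the intima and from 5.12 and 15.03 CPM to 1730.1 and 1008 CPM in the media. Both rose in both layers, with the larger change in the intima. The layer difference was 0.73 ± 0.55 for TIMP1 and 1.08 ± 0.51 for ANKRD1. The changes in intima and media were 4.58 and 3.78 for TIMP1 and 8.02 and 7.06 for ANKRD1. TM4SF18, a membrane protein related to the tetraspanins, and ST6GALNAC4, a sialyltransferase, also rose in both, at layer differences of 1.11 ± 0.70 and -1.35 ± 0.84. DPEP2, a dipeptidase of leukotriene metabolism, and ABI3BP, a matrix protein, fell in both, at 0.40 ± 0.74 and 0.09 ± 0.58. A q-value that misses the threshold does not show that the layers responded alike.

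The other 4 medial calls were ARID5B, given above, FABP5, UTRN and RND3. FABP5, a fatty acid binding protein, rose in the media from 9.67 and 40.6 CPM to 755 and 637 CPM (q = 0.047) and was at 75.4 and 150.1 CPM sham against 517 and 578 CPM ligated in the intima. Its ligated values were the higher in both layers, and the layer difference was -2.74 ± 0.52 (q = 0.52). UTRN, utrophin, which links actin to the matrix, fell in the media from 1080.4 and 1094 CPM to 194 and 154 CPM, with 299.7 and 526 CPM sham against 194 and 215 CPM ligated in the intima and a layer difference of 1.69 ± 0.48. RND3, an antagonist of RhoA, fell in the media from 532 and 731 CPM to 114 and 103 CPM, at a layer difference of 0.77 ± 0.51.

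The straight BA of the same 4 rabbits gave a reference for whether a layer difference was particular to the BT. In a fit of all 16 libraries, 0 of 10077 genes (0%) had a layer difference at the BT that differed from that in the BA past a q-value of 0.05 in the edgeR test, and 342 (3.39%) did at an unadjusted p under 0.05. The genes of smallest p included LIMCH1 and ALG11 on the positive side and were led by ISG15, LPAR6 and MAN1C1 on the negative side, all with a q-value of 1. For LIMCH1 the layer difference in the BA was 0.08 ± 0.42, and the BT exceeded it by 2.46 ± 0.60. In the BA it stood at 545 and 592 CPM sham against 389.6 and 515 CPM ligated in its intima and 348 and 566 CPM sham against 312 and 350.2 CPM ligated in its media. ISG15 had the other sign in the BA, at 1.67 ± 0.77, where its intima was at 149.7 and 339.7 CPM sham against 119 and 379.8 CPM ligated and its media at 153 and 897 CPM sham against 137 and 88.1 CPM ligated, overlapping in the intima. HBEGF and KITLG had layer differences of -0.70 ± 1.00 and 1.51 ± 1.52 in the BA. The intimal values of HBEGF there overlapped, at 12.7 and 7.47 CPM in the sham and 30.7 and 12.1 CPM in the ligated rabbits. For TYROBP the BA value was -0.06 ± 1.58, with 143 and 4.26 CPM in the sham and 36.00 and 0 CPM in the ligated intima. LPAR6, a lysophosphatidic acid receptor, was at -1.52 ± 0.62 at the BT and 3.83 ± 0.77 in the BA, and ALG11, a mannosyltransferase of glycan assembly, at 1.66 ± 0.73 and -2.60 ± 0.74. MAN1C1 was at 0.77 ± 0.99 in the BA.

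**Figure D5:**
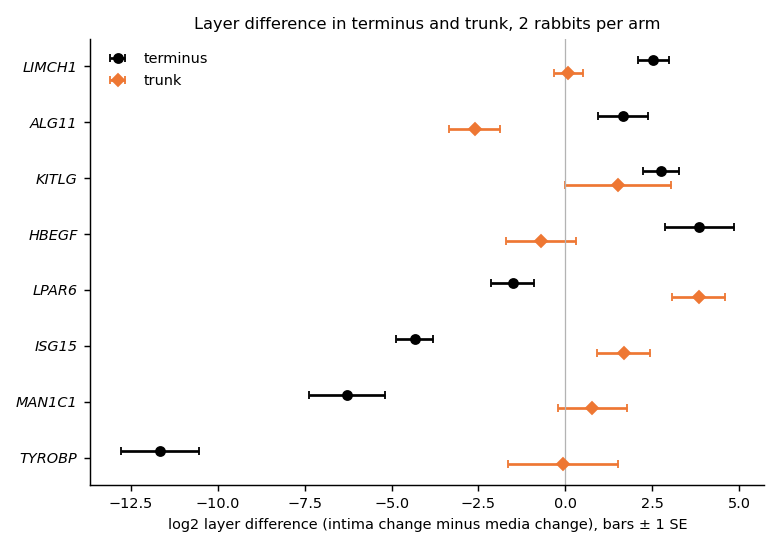
Layer difference (x axis, log2, bars ± 1 SE) at the basilar terminus (black circles, fit of 8 libraries) and in the straight basilar artery trunk (orange diamonds, fit of 16 libraries) for LIMCH1, ALG11, LPAR6, ISG15 and MAN1C1, of small p in the comparison of locations, and for KITLG, HBEGF and TYROBP (rows). LIMCH1 lies near 0 in the trunk and above 2 at the terminus, and ISG15 lies below 0 at the terminus and above 0 in the trunk.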

How the data were processed

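The authors sequenced laser-cut intima and media of the basilar artery and basilar terminus (SMART-Seq v4 cDNA, Nextera libraries), aligned reads with STAR to oryCun2 and deposited raw counts per gene symbol from featureCounts 1.6.2. No normalization had been applied to the deposited counts. The table gives symbols and no coordinates or sequences, and none were used here. The entry without a symbol (13.8 to 18.7% of counts at the BT) was dropped, and 22 symbols that are dates are not named.

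The 8 BT libraries were scaled by TMM, and 9624 of 13788 symbols with a mean above 1 CPM in any group were tested with edgeR 4.0.16 (R 4.3.3) quasi-likelihood F tests, two-sided, with Benjamini-Hochberg q-values over all genes. Rabbit was the block, with layer and layer by ligation as terms (2 residual degrees of freedom). Changes within a layer came from 4 group means on the same libraries, and the comparison with the BA from all 16 libraries with rabbit by location as block. Ratios within a rabbit used CPM + 0.5. Intima and media of the same number came from the same rabbit, by the labels; their deviations from group means correlated at r = 0.0555 (sham) and 0.00575 (ligated) over 9624 genes. Replicates are separate animals, and library pairs of a group differed well beyond counting noise (chi-square per degree of freedom 33.2 to 364). The edgeR fits of the layer difference, the changes within a layer and the comparison with the BA were run on simulated counts with planted changes. The other steps were not tested in this way. Depth sets a floor of 3 counts, 0.205 to 0.947 CPM per library, for counting error only.

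Genes were named by rule: those past a q-value of 0.05 in the layer difference; the 10 of smallest p in each direction among genes of at least 10 CPM in a group; PECAM1, VWF, CDH5, DES, ACTA2, MYH11 and CD14; list members with unadjusted p under 0.05; and the 3 of smallest p in each direction of the comparison with the BA. The comparison, gene lists and rule were chosen with earlier results of these data known. Alternatives were no block, DESeq2 1.42.0 (also its size factors), limma 3.58.1 voom, library size alone, other filters, the version 4 quasi-likelihood form and leaving out each rabbit. Leaving out rabbits for the lists, and setting zero groups to 3 counts, were added after seeing the data. A fit without 1 rabbit leaves 1 rabbit in its group, so no counts of list members are given from it. A gene that this rule also names is not reported here.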

Additional observations from a re-analysis of the deposited data

How the results depend on the processing

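Genes past a q-value of 0.05 in the layer difference numbered 0 with all 4 rabbits and under 9 of the 12 alternatives. They numbered 1 (TYROBP) with no filter, 112 with DESeq2, and 0 to 14 when 1 rabbit was left out, the 14 without rabbit 6. Genes at an unadjusted p under 0.05 numbered 809 with DESeq2, 262 (without rabbit 3) to 786 (without rabbit 6) when 1 rabbit was left out, and 433 to 623 under the other alternatives. With no replicate block, 570 genes had an unadjusted p under 0.05 and 0 a q-value under 0.05. Fitted alone, the intima gave 0 calls and the media 206. Leaving out 1 rabbit gave 0 to 219 calls in the intima and 0 to 85 in the media. The difference between BT and BA gave 0 calls under each alternative run. Of 125 genes under 12 alternatives, 8 had a layer difference that changed sign. CD14 was 0.0807 with no replicate block, 0.0056 with the version 4 quasi-likelihood form and 0.036 with limma voom, and -1.84 to 0.78 when 1 rabbit was left out. PECAM1 was 0.64, 0.072 and 0.71 under those 3 and -2.30 to 1.14 with 1 rabbit left out, and CDH5 was 0.78, 0.87 and 0.075, and -7.05 to 1.60, of which 0.14 came without rabbit 5. ABI3BP was -0.042 with library size alone and -0.54 to 0.72 with 1 rabbit left out. The leave-one-out range was -2.53 to 5.03 for IL6, -2.05 to 0.20 for DES, -0.68 to 1.64 for ACTA2 and -0.31 to 1.13 for DPEP2. The median changed sign under at least 1 alternative in 13 of the 21 gene lists. The cause of these shifts was not tested.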
